A study of Arabidopsis thaliana with 6 samples.

Results

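The transcripts described here are 29 Arabidopsis thaliana genes that are known in the array's annotation only by a locus code and whose signal was higher in every pmr5 array than in every array of the wild type. They were chosen by measured values, namely the difference between the genotype means and the lack of overlap between the genotypes. They are 29 of 22746 tested probe sets, and each of the 29 probe sets stood for a different gene. Rosettes of 3-week-old, untreated plants were hybridised to 1-colour Affymetrix arrays, with 3 arrays of the pmr5 mutant and 3 of wild type Col-0. Both genotypes share the Col-0 background, and the labels do not name the pmr5 allele or say whether replicates came from separate sowings. A probe set is a group of short probes for one transcript, and its value is a log2 signal, so that a difference of 1 is a 2-fold change.

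A locus code gives the chromosome after the letters AT and, after the G, a number that runs along that chromosome. It says where a gene lies and nothing of what the gene does. The current RefSeq table still had the locus code as the symbol of all 29 genes and listed all 29 as protein coding, with no description of the proteins, so no role is given to them here. PMR5 itself, whose loss makes plants resistant to powdery mildew and alters the pectin of their cell walls, belongs to the family of TRICHOME BIREFRINGENCE-LIKE proteins, many of which acetylate wall polysaccharides. The transcript of PMR5 was not analysed here, because no tested probe set was paired with PMR5 and no other gene.

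The candidates were the 3583 probe sets that were paired with exactly 1 locus-named gene, had a mean log2 signal above 6 over the 6 arrays and were not among the 200 highest means of such probe sets. In 123 of them the pmr5 mean was at least 0.5 log2 units above the Col-0 mean, and in 98 the lowest pmr5 array lay above the highest Col-0 array. Both held for 32, or 0.893% of the candidates. The rule leaves out 3 of these by name, which gives the 29. The mirrored criteria, lower in pmr5, were met by 34 candidates. The same criteria were then applied to the other 9 ways of dividing the 6 arrays into 3 and 3, in both directions. The 18 counts so obtained lay between 3 and 171 with a median of 26.5, and 8 of them were at least 32. Lists of this length or longer thus also came from divisions that mix the genotypes. The 4 longest, 108 to 171, came from divisions that set pmr5 replicate 2 and 2 Col-0 arrays against pmr5 replicates 1 and 3 and 1 Col-0 array. Across probe sets, which are not independent replicates, pmr5 replicate 2 correlated at 0.985 and 0.986 with pmr5 replicates 1 and 3. Those 2 correlated at 0.995 with each other. With the Col-0 arrays pmr5 replicate 2 correlated at 0.986, 0.989 and 0.991. It was the highest pmr5 array in 41.9% of the candidates and the lowest in 40.6%. Such shares were not particular to it. Col-0 replicate 1 was the highest Col-0 array in 47.9% of the candidates, and Col-0 replicate 3 was the lowest in 42.9%. These 2 Col-0 arrays had the lowest correlation of all pairs, 0.980.

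**Figure D1:**
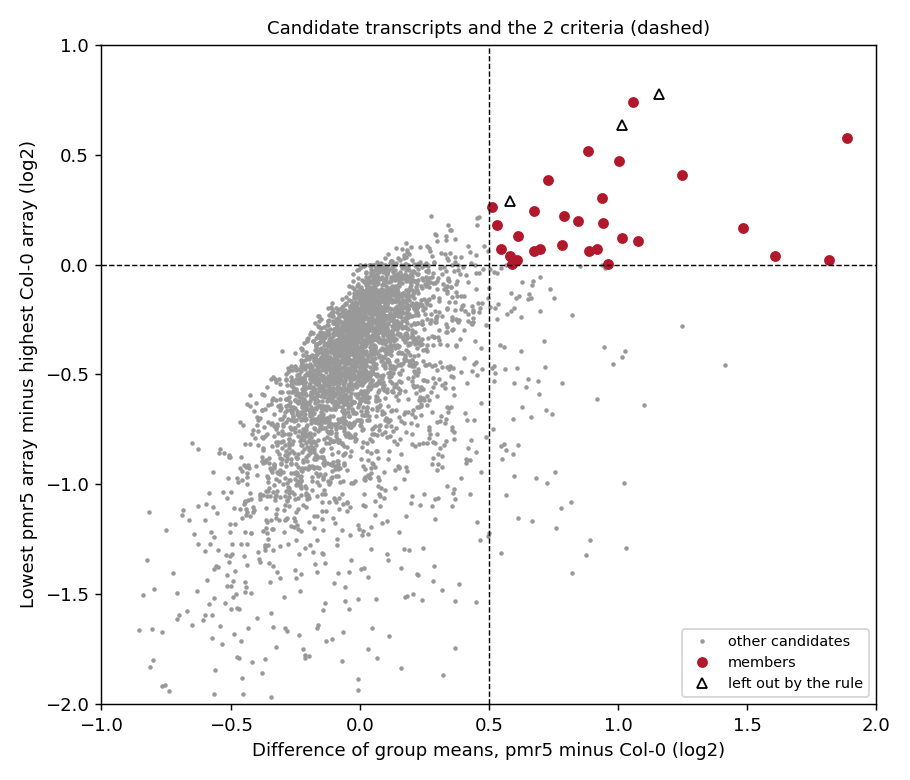
Each point is 1 candidate probe set, with the difference of group means (pmr5 minus Col-0, log2) on the x axis and the lowest pmr5 array minus the highest Col-0 array (log2) on the y axis. Dashed lines mark 0.5 and 0, the 29 red points are the transcripts described here, the 3 triangles are the loci left out by name, and 53 candidates lie outside the axes.

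The criteria with 1 array fewer were met by more transcripts, and by the largest number without pmr5 replicate 2. Lack of overlap is easier to meet with 1 array fewer, so that higher counts are partly built in. The count was 192 when pmr5 replicate 2 was dropped, 63 when pmr5 replicate 1 was dropped and 34 when pmr5 replicate 3 was dropped. Dropping Col-0 arrays gave 97 for replicate 3, 51 for replicate 1 and 47 for replicate 2. Of the 29 transcripts, between 24 and 28 met the criteria in each of these cases. Limma, a linear model fitted to all 22746 probe sets, called none of them different between pmr5 and Col-0 at a Benjamini-Hochberg adjusted p under 0.05, which is 0% of the probe sets and 0 of the 29. At an unadjusted p under 0.05 it gave 311 probe sets higher and 280 lower in pmr5. Because the 29 were picked on this same difference, their values are a description and no p is attached to them.

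Among the 29 the difference of means had a median of 0.88 log2 units and ran from 0.51 to 1.89, whereas over the candidates its median was -0.01. The gap between the lowest pmr5 array and the highest Col-0 array had a median of 0.13 and ran from 0.0011 to 0.74. In 12 of the 29 the gap was under 0.1. The difference was at least 1 in 9 transcripts, from 0.7 to under 1 in 11, and under 0.7 in 9. In rosettes, a higher signal from more cells of one type cannot be told apart from one with more RNA per cell.

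**Figure D2:**
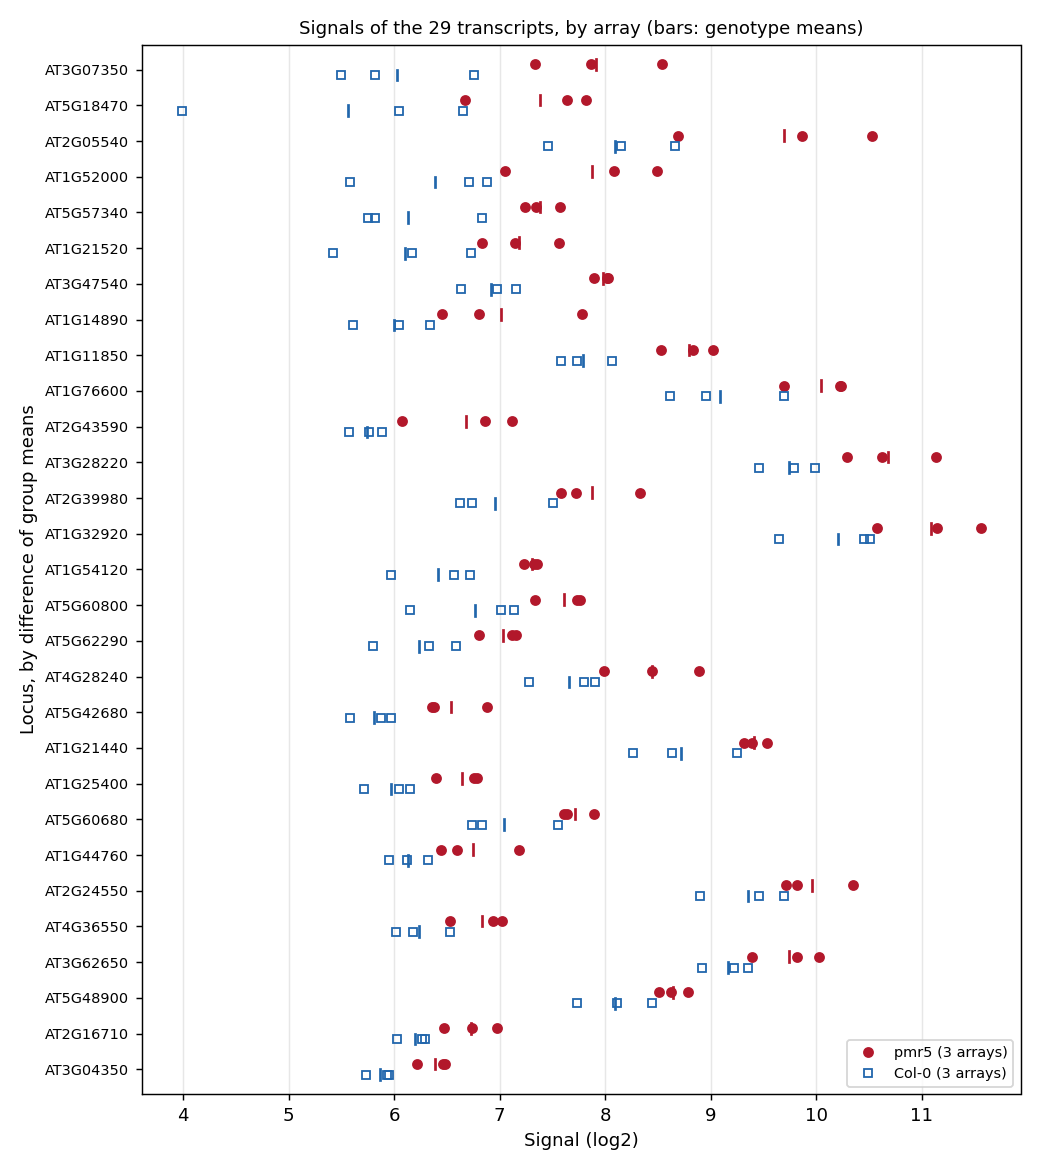
Log2 signal (x axis) of each of the 29 transcripts (rows, by difference of group means) on the 3 pmr5 arrays (red circles) and the 3 Col-0 arrays (blue squares), with short bars at the genotype means. Every red circle lies to the right of every blue square of its row, as the rule requires. The gap is widest in AT3G47540, at 0.74, and nearly closed in AT4G36550 and AT1G76600.

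AT3G07350 showed the widest difference of the 29. Its log2 signal was 7.86, 7.34 and 8.54 on the pmr5 arrays (replicates 1, 2 and 3 in that order, as in all sentences that follow) and 5.50, 5.82 and 6.76 on the Col-0 arrays. Its mean was 7.91 ± 0.60 in pmr5 and 6.03 ± 0.66 in Col-0 (SD, n = 3 each), 3.7-fold higher in the mutant with a gap of 0.58. AT5G18470 came next, at 7.64, 6.67 and 7.82 in pmr5 and 3.99, 6.04 and 6.65 in Col-0, a 3.52-fold difference. Here Col-0 replicate 1 was by far the lowest array, while Col-0 replicate 3 lay only 0.022 below pmr5 replicate 2. AT2G05540 had signals of 9.87, 8.69 and 10.53 in pmr5 and 7.46, 8.15 and 8.66 in Col-0, which is 3.05-fold. Its spread within pmr5, 0.93 (SD), was the widest in that genotype, and the same arrays as in AT5G18470, pmr5 replicate 2 and Col-0 replicate 3, nearly met. AT1G52000 was at 7.05, 8.08 and 8.49 in pmr5 and at 5.58, 6.88 and 6.70 in Col-0, a 2.8-fold difference with replicate 1 lowest in both genotypes.

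Of the other 5 transcripts at or above 2-fold, 4 had an SD under 0.4 in pmr5. AT5G57340 read 7.34, 7.57 and 7.24 in pmr5 and 6.83, 5.82 and 5.75 in Col-0, so that the pmr5 arrays lay close together and Col-0 replicate 1 stood above its fellows. It was 2.38-fold higher in pmr5. AT1G21520 read 6.84, 7.56 and 7.15 in pmr5 and 5.42, 6.17 and 6.73 in Col-0, with a wide Col-0 spread of 0.66 (SD). AT3G47540 was the most clearly separated transcript: 8.03, 8.02 and 7.89 in pmr5 stood against 6.63, 7.15 and 6.97 in Col-0. Its means were 7.98 ± 0.07 in pmr5 and 6.92 ± 0.26 in Col-0 (SD, n = 3 each), a 2.08-fold difference. It was the only one of the 29 in which the gap exceeded the range of the arrays within either genotype. AT1G11850 read 8.83, 9.02 and 8.53 in pmr5 and 8.06, 7.73 and 7.58 in Col-0, with the same SD of 0.25 in each genotype and a gap of 0.47. The fifth was AT1G14890, at 6.81, 6.45 and 7.78 in pmr5 and 5.61, 6.34 and 6.05 in Col-0, where pmr5 replicate 3 stood well above the other pmr5 arrays.

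Of the 11 transcripts with differences from 0.7 to under 1, 4 were bright, with a mean over the 6 arrays above 9. AT1G32920, the brightest of the 29, was at 10.57, 11.14 and 11.56 in pmr5 and at 10.45, 9.65 and 10.51 in Col-0, and its mean exceeded that of 97.5% of the candidates. AT3G28220 was at 10.29, 10.62 and 11.13 in pmr5 and at 9.45, 9.79 and 9.99 in Col-0, 1.92-fold higher with a gap of 0.30. In both, pmr5 replicate 3 was the highest array. AT1G76600 was at 9.69, 10.22 and 10.23 in pmr5 and at 8.96, 8.61 and 9.69 in Col-0, so that pmr5 replicate 1 and Col-0 replicate 3 differed by only 0.0033. AT1G21440 was at 9.32, 9.39 and 9.54 in pmr5 and at 8.26, 9.25 and 8.63 in Col-0, tight in pmr5 and with Col-0 replicate 2 just below it.

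The remaining transcripts of this size were dimmer. AT1G54120 had the narrowest pmr5 spread of the 29, with 7.23, 7.32 and 7.35 in pmr5 and 5.97, 6.57 and 6.72 in Col-0. Its means were 7.30 ± 0.06 in pmr5 and 6.42 ± 0.40 in Col-0 (SD, n = 3 each), with a gap of 0.52. AT5G42680 read 6.87, 6.38 and 6.36 in pmr5 and 5.58, 5.97 and 5.87 in Col-0, and it too was well separated, by 0.39. AT5G60800 read 7.33, 7.76 and 7.73 in pmr5 and 6.15, 7.13 and 7.01 in Col-0, with Col-0 replicate 1 well below the other Col-0 arrays. AT2G43590 read 6.86, 7.12 and 6.08 in pmr5 and 5.77, 5.57 and 5.89 in Col-0. It was the one transcript of this size with an SD over 0.5 in pmr5, 0.54, against 0.16 in Col-0. AT5G62290 read 7.12, 6.80 and 7.16 in pmr5 and 6.33, 6.58 and 5.80 in Col-0, a 1.73-fold difference. In AT2G39980, with 7.58, 8.33 and 7.72 in pmr5 and 6.74, 6.62 and 7.51 in Col-0, and in AT4G28240, with 8.88, 7.99 and 8.44 in pmr5 and 7.90, 7.80 and 7.27 in Col-0, the genotypes came within 0.1 of each other.

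The 9 smallest differences were 1.43-fold to 1.6-fold. AT1G25400 read 6.40, 6.75 and 6.79 in pmr5 and 5.71, 6.04 and 6.15 in Col-0, with much the same spread in each genotype. AT5G60680 read 7.61, 7.90 and 7.64 in pmr5 and 7.55, 6.74 and 6.83 in Col-0, and there Col-0 replicate 1 all but reached the pmr5 arrays. AT1G44760 read 6.45, 7.18 and 6.60 in pmr5 and 5.95, 6.32 and 6.12 in Col-0, with pmr5 replicate 2 the high one. AT2G24550 read 9.71, 9.82 and 10.34 in pmr5 and 9.46, 8.90 and 9.69 in Col-0, and AT3G62650 read 9.81, 9.39 and 10.03 in pmr5 and 9.22, 8.91 and 9.35 in Col-0. Both are bright, and in both the gap was under 0.04. AT4G36550 read 6.94, 6.53 and 7.02 in pmr5 and 6.18, 6.52 and 6.01 in Col-0, and its gap of 0.0011 was the narrowest of all. AT5G48900 read 8.79, 8.51 and 8.63 in pmr5 and 8.44, 7.73 and 8.11 in Col-0, a 1.46-fold difference. AT2G16710 read 6.74, 6.47 and 6.97 in pmr5 and 6.27, 6.29 and 6.03 in Col-0, and AT3G04350 read 6.46, 6.21 and 6.48 in pmr5 and 5.73, 5.95 and 5.93 in Col-0. These last 2 are dim, but their arrays within a genotype lay close together, so that the gaps of 0.18 and 0.26 were larger than in several of the 2-fold transcripts.

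The members just inside the limit of 0.5 were AT3G04350 at 0.51, AT2G16710 at 0.53 and AT5G48900 at 0.55. Just outside it, with no overlap between the genotypes, were AT1G03610 at 0.497, AT2G28410 at 0.48 and AT2G20390 at 0.46. On the other criterion, AT5G03320 and AT1G62422 had differences of 0.60 and 0.56 but shared 1 identical value between a pmr5 and a Col-0 array. AT3G22060 missed by 0.0033 with a difference of 0.94. Membership near both limits thus hangs on differences far smaller than the spread between arrays.

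The 3 loci left out by name were AT5G19120, AT2G20670 and AT1G22690. They met the criteria with differences of 1.16, 1.02 and 0.58 log2 units and gaps of 0.77, 0.64 and 0.29. The gap of AT5G19120 was wider than that of any of the 29.

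The 29 covered most of the range of levels that the rule admits. The mean signal over the 6 arrays ran from 6.13 in AT3G04350 to 10.65 in AT1G32920, with a median of 7.13 against 7.55 over the candidates. It was above 9 in 6 of the 29, from 8 to 9 in 4, from 7 to 8 in 5 and under 7 in 14. The spread within a genotype had a median SD of 0.31 in pmr5 and 0.40 in Col-0 for the 29, and of 0.22 in pmr5 and 0.21 in Col-0 for the candidates. The SD was wider in pmr5 for 14 of the 29 and wider in Col-0 for 15. In 11 of the 29 the difference of means was more than 2 times the wider SD.

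The gap is set by the lowest pmr5 array and the highest Col-0 array. The lowest pmr5 array was replicate 1 in 13 of the 29 (44.8%, against 31.0% of the candidates). It was replicate 2 in 11 (37.9%, against 40.6%) and replicate 3 in 5 (17.2%, against 28.5%). The highest Col-0 array was replicate 3 in 13 (44.8%, against 28.0% of the candidates). It was replicate 2 in 11 (37.9%, against 24.1%) and replicate 1 in 5 (17.2%, against 47.9%). The arrays at the far ends widen the difference of means without setting the gap. The highest pmr5 array was replicate 3 in 17 of the 29 (58.6%, against 28.2% of the candidates), and the lowest Col-0 array was replicate 1 in 15 (51.7%, against 29.2%). The median deviation from the genotype mean over the 29 was 0.12 in pmr5 replicate 3 and -0.18 in Col-0 replicate 1. The rule used the values behind these shares, which are descriptions.

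**Figure D3:**
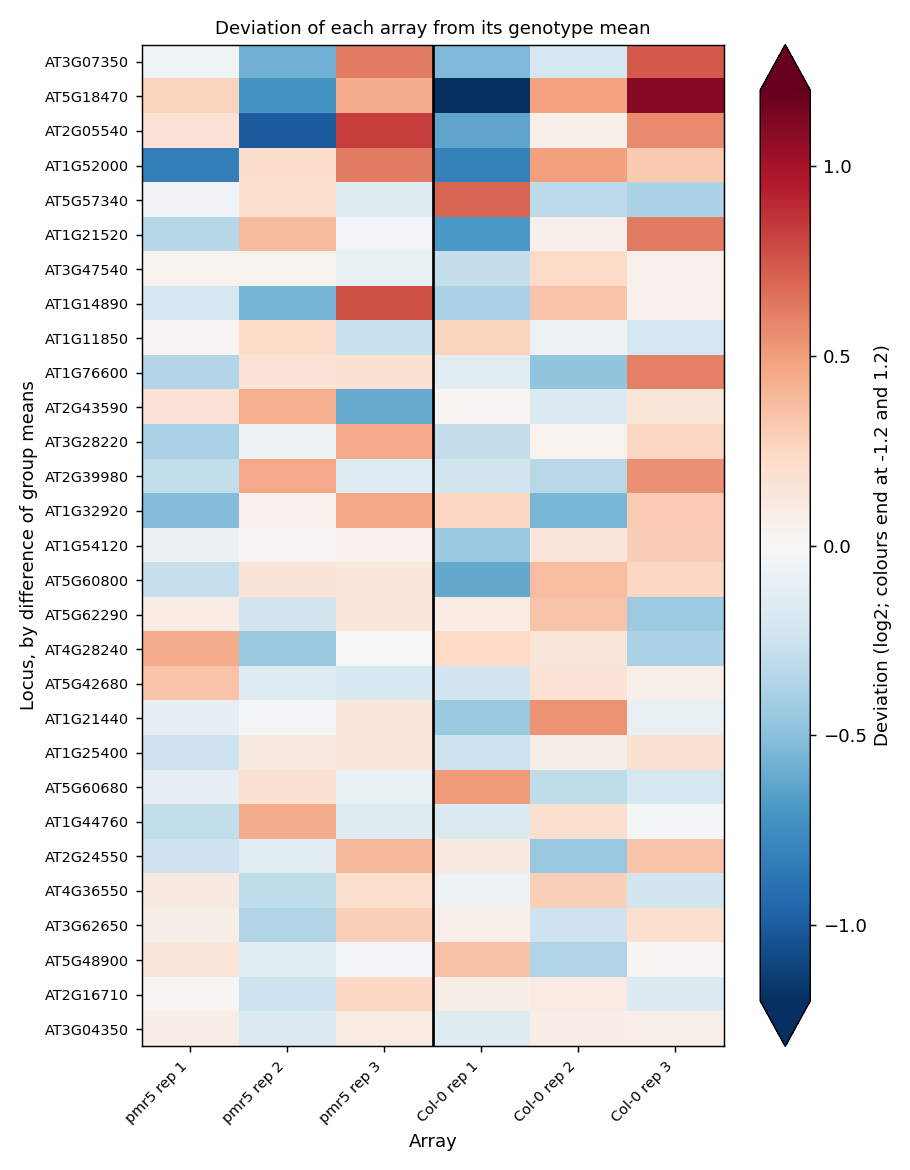
Deviation of each array (columns, pmr5 left of the line and Col-0 right of it) from the mean of its genotype, in log2 units, for the 29 transcripts (rows, by difference of group means). Red is above and blue below the genotype mean. Col-0 replicate 1 is the lowest Col-0 array in 15 rows and pmr5 replicate 3 the highest pmr5 array in 17.

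The arrays that were lowest in each genotype split the 29 into a few groups. In 8 transcripts replicate 1 was the lowest array of both genotypes, namely AT1G52000, AT1G21520, AT3G28220, AT1G54120, AT5G60800, AT1G21440, AT1G25400 and AT1G44760. That is 27.6% of the 29, against 10.2% of the 3241 candidates without identical values. In 5 transcripts, AT3G07350, AT5G18470, AT2G05540, AT1G14890 and AT3G04350, pmr5 replicate 2 and Col-0 replicate 1 were the lowest (17.2%, against 13.6% of these candidates). In another 5, AT1G76600, AT2G39980, AT1G32920, AT5G60680 and AT2G24550, pmr5 replicate 1 and Col-0 replicate 2 were the lowest (17.2%, against 9.44%). AT5G62290, AT4G28240, AT4G36550 and AT2G16710 had their lowest arrays in pmr5 replicate 2 and Col-0 replicate 3 (13.8%, against 20.1%). That pair was the most common one among these candidates. The pair of pmr5 replicate 1 and Col-0 replicate 3 was the lowest in 0 of the 29, against 356 of the 3241 candidates. The 29 transcripts thus do not follow a single profile over the arrays, although they share the difference that chose them.

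With 1 array left out, the difference of means stayed at 0.5 or more in every case for 21 of the 29. All 29 stayed higher in pmr5, which the lack of overlap fixes in advance. In 5 transcripts the loss of 1 array changed the difference by more than 1.5 times. With Col-0 replicate 1 left out, AT5G18470 was at 1.03 and AT5G60800 at 0.54. With pmr5 replicate 3 left out, AT1G14890 was at 0.63. AT1G44760 was at 0.39 when pmr5 replicate 2 was dropped, and AT2G24550 at 0.38 when Col-0 replicate 2 was dropped. The narrowest ranges among the 2-fold transcripts were 0.92 to 1.18 in AT3G47540 and 0.89 to 1.14 in AT1G11850. Over the 29 the median difference was lowest, at 0.78, when pmr5 replicate 3 was dropped and highest, at 0.97, when Col-0 replicate 3 was dropped.

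**Figure D4:**
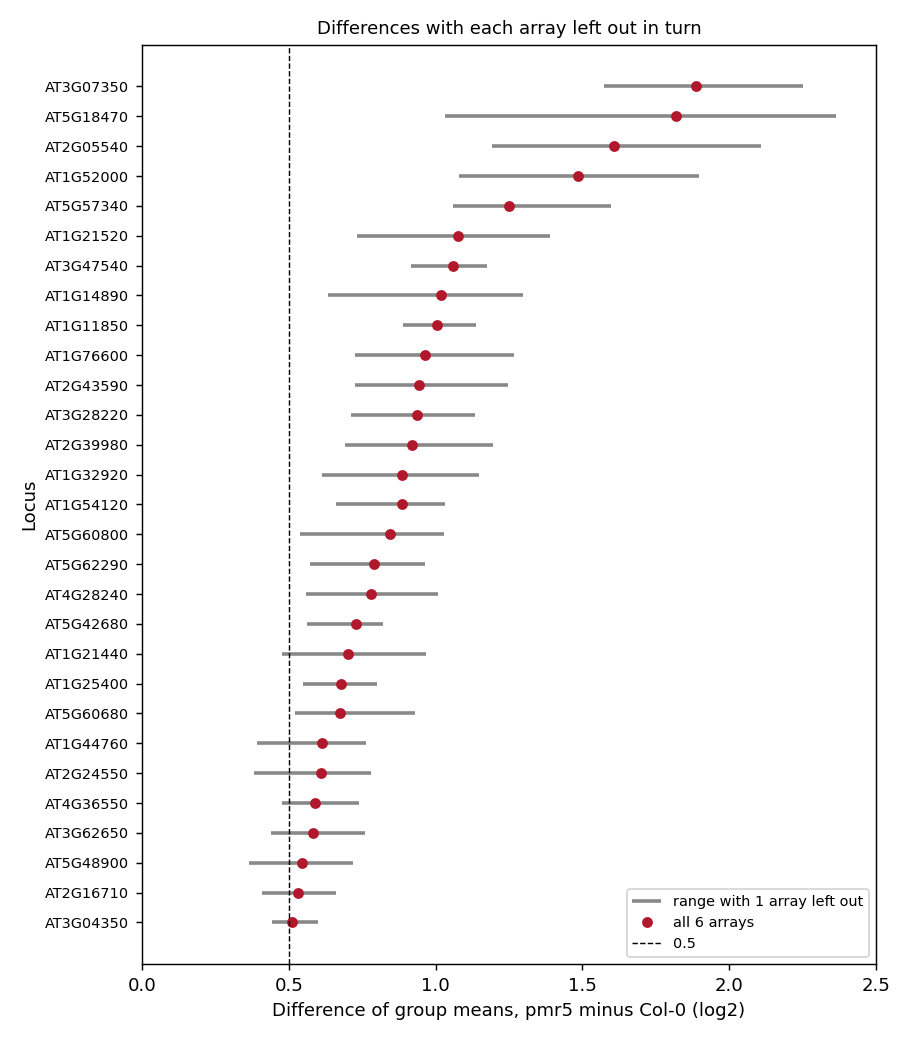
Difference of group means (pmr5 minus Col-0, log2, x axis) of the 29 transcripts (rows) with all 6 arrays (red points) and its range when each array is left out in turn (grey lines). The dashed line marks 0.5, and 21 of the lines stay at or above it.

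The genes lie on all 5 nuclear chromosomes. There were 10 on chromosome 1, 5 each on chromosomes 2 and 3, 2 on chromosome 4 and 7 on chromosome 5. Chromosome 1 thus holds 34.5% of the 29, against 25.6% of the candidates, and chromosome 4 holds 6.9%, against 14.4%. None of the 29 was a direct neighbour of another. The closest pairs were AT1G21440 and AT1G21520, with 7 protein-coding genes between them, and AT5G60680 and AT5G60800, with 11.

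The next protein-coding gene on either side gave 58 neighbours, of which 28 had a probe set of their own. In 18 of these the signal varied above the lowest value of the table on every array, 11 higher and 7 lower in pmr5. The 11 include AT5G42690, which was near that lowest value, at 2.20 on every array, with a difference of 0.0002. Their differences ran from -0.91 to 0.40 log2 units with a median of 0.07. With no overlap between the genotypes there were 0 higher and 1 lower neighbour. Over all tested probe sets 2.41% were higher and 2.25% lower in pmr5 with no overlap. The lower neighbour was AT5G18475, beside AT5G18470, at 3.15, 3.15 and 3.06 in pmr5 and 3.79, 3.73 and 3.34 in Col-0, close to the lowest value of 2.19. Of the neighbours with a symbol, EXPB3, for an expansin that loosens cell walls, lies beside AT4G28240 and differed by 0.38 with overlapping genotypes. AFR, for an F-box protein of light signalling, lies beside AT2G24550 and differed by 0.08, with pmr5 arrays at 8.22, 9.92 and 7.90. YUC11, for an enzyme of auxin synthesis beside AT1G21440, was above the lowest value on 1 array only, pmr5 replicate 1 at 2.22.

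Over all pairs of arrays the correlation across probe sets lay between 0.980, for Col-0 replicates 1 and 3, and 0.995, for pmr5 replicates 1 and 3. The arrays' median log2 signals were 4.71, 4.75 and 4.78 in pmr5 and 4.68, 4.71 and 4.73 in Col-0, which overlapped. The poly-A spike controls, RNAs added during labelling, averaged 6.33, 6.50 and 5.98 in pmr5 and 6.53, 6.53 and 6.74 in Col-0, with every pmr5 array below every Col-0 array. The 3′ minus 5′ difference of the actin, GAPDH and ubiquitin controls, a sign of RNA integrity, was 2.02, 2.20 and 1.97 in pmr5 and 2.12, 2.05 and 2.14 in Col-0, with overlap. The part of these measures in the differences of the 29 was not tested.

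Marker lists were set beside the 29, and a listed gene counts as measured here where a probe set was paired with it and no other gene. The leaf genes LHCB4.1, LHCB4.2 and RCA, of light harvesting and carbon fixation, were the 3 of 13 photosynthesis genes measured, with means of 14.5, 14.7 and 15.2 in the 6 arrays and overlapping genotypes. Of 8 guard cell genes 4 were measured, and 2 of them, AT1G22690 and FMA, were higher in pmr5 with no overlap, as were 2.41% of all probe sets. The summed guard cell signal was 10.71 to 10.90 log2 in pmr5 and 10.09 to 10.43 in Col-0, while SPCH and MUTE, which act early in the stomatal lineage, were close to the lowest value. That sum is nearly all AT1G22690, which met the criteria for the 29 and was left out by name, so it is not independent of the rule. Of 6 root genes 2 were measured, with EXPA7 never above the table's lowest value and PYK10 overlapping between the genotypes, and the trichome gene TRY overlapped as well. No vascular, flower or seed gene of the lists had such a probe set, so none was analysed here. The part of guard cells in the differences of the 29 was not tested.

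Of 11 genes of touch and rapid stress 4 were measured, 2 of them higher in pmr5 with no overlap, as were 2.41% of all probe sets, with a median difference of 1.31 over the 4. WRKY53, for a transcription factor of senescence and defence, was at 8.46, 8.71 and 9.23 in pmr5 and at 5.17, 7.45 and 7.55 in Col-0. Col-0 replicate 1 was its lowest array, as in 15 of the 29 (51.7%, against 29.2% of the candidates). WRKY22, the other gene with no overlap, was at 4.86, 5.82 and 6.22 in pmr5 and at 3.42, 3.85 and 4.41 in Col-0. STZ, a zinc finger protein of stress responses, and CML38, a calmodulin-like protein, overlapped. In both, Col-0 replicate 2 was the lowest Col-0 array, at 7.70 in STZ and 6.21 in CML38. Of 6 carbon starvation genes 3 were measured and all 3 were higher in pmr5 with no overlap, against 2.41% of all probe sets. They were QQS and 2 of the loci left out by name, AT5G19120 and AT2G20670, and they were put on the list with that result known. The other lists, that of touch and rapid stress among them, were also chosen with earlier results of these data known. Of 10 genes of salicylate defence only 1 was measured, SAG101, which was dim with a mean of 5.18 and overlapped. Of 4 reference transcripts 3 were measured, and PEX4, AT4G34270 and AT2G28390 all overlapped. Limma called 0 members of any of these lists.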

How the data were processed

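Untreated rosettes of pmr5 and Col-0 were measured on 3 arrays each. Per the submitters' processing notes, the authors used RMA, from affy, of unstated version, and the deposited numbers are log2 signals of probe sets. Between 25% and 26.3% of each array sits at a shared lowest log2 value of 2.19, as deposited, and none of the 29 transcripts is at it. The number of arrays limits the precision.

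The 64 control probe sets were left out. Genes came from the platform annotation (13513 probe sets with 1 gene, 11933 of them named only by a locus code), and RefSeq's table of assembly TAIR10.1 gave symbols and gene order. The 200 highest means were taken among the locus-named probe sets. With no added normalization, limma 3.58.1 (R 4.3.3) was fitted to the log2 values as pmr5 minus Col-0 (lmFit and eBayes, 2-sided), adjusted over all 22746 probe sets. Counts and means were computed in Python 3.11.15. The limma step was tested on simulated data. Alternatives were leaving out each array, centring on array medians, quantile normalization, other limits of the rule, the replicate number as a block, a filter on dim probe sets and an intensity trend with a robust prior. All members were named. The neighbours' values and the orders of the arrays were added after the values were seen. The members and lists were chosen with earlier results of these data known. Promoter and protein sequences were not used here. Labels call the arrays of a genotype biological replicates but name no separate sowings, so the spread may be partly technical.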

Additional observations from a re-analysis of the deposited data

How the results depend on the processing

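The number of transcripts that met the rule, 29, was 28 with arrays centred on their medians (25 of them shared) and 33 with quantile normalization (28 shared). It was 31 with the 200 highest means taken over all probe sets, 38 and 24 with limits of 0.4 and 0.6, 41 with a mean above 5, and 15 with a mean above 7, where the limit itself removes the dimmer ones. With 1 array left out, which makes the lack of overlap easier to meet, it ran from 34 to 192, with 192 without pmr5 replicate 2. The median difference of 0.88 lay between 0.78 and 0.97 when arrays were left out singly, and was 0.84 after centring and 0.88 after quantile normalization. All 232 differences of single transcripts under these alternatives stayed above 0, which the lack of overlap fixes where an array is left out. Centring lowered every difference by the same 0.04, which took AT2G16710 to 0.49 and AT3G04350 to 0.47, below the limit of 0.5. Quantile normalization moved a single difference by at most 0.02, while 5 transcripts moved by over 1.5 times with 1 array left out. Limma called 0 probe sets, and 0 to 13 with 1 array left out, with 13 without pmr5 replicate 2. It called 1 among the 8879 probe sets with a mean above 6, and 0 after centring, quantile normalization or with an intensity trend and robust prior. With the replicate block it also called 0 probe sets, with 750 at an unadjusted p under 0.05 against 591 without the block. Same-numbered arrays of pmr5 and Col-0 correlated at 0.118, -0.282 and 0.194 in their deviations from the genotype means over 16186 probe sets, so the numbers were not taken to pair the samples, and not every array correlated best with its own number.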

Other observations

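Identical values on different arrays are common in the table. Among the candidates 342, or 9.55%, held at least 1 pair of arrays equal within 1e-06, and none of the 29 did. AT5G03320, for example, read 7.34 both on pmr5 replicate 2 and on Col-0 replicate 3, and AT1G62422 read 6.30 both on pmr5 replicate 1 and on Col-0 replicate 3. A difference of 0 between a pmr5 and a Col-0 array is not a gap under the rule, so such ties kept these 2 out. How these values came to be equal was not tested.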
